A study of Mus musculus with 36 samples.

Results

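Small nucleolar RNA genes and their Cajal body relatives were taken from the gene tables of a mouse embryonic stem cell study by their symbols, as every row whose symbol starts with Snora, Snord or Scarna followed by a digit. The rule gave 109 of the 21516 genes listed, of which 35 were Snora genes, 65 were Snord genes and 9 were Scarna genes. The RNA of whole cultures was sequenced from its 3′ ends, in 12 groups of 3 libraries. All cells were of 1 FUCCI line, an embryonic stem cell line of 129/sv origin that carries fluorescent reporters of cell cycle phase, and all grew in 15% serum for about 18 h before a treatment of 72 h. Sorb300 received 300 mM sorbitol, a sugar alcohol that raises the osmolarity of the medium, and RA received 1 µM retinoic acid. ND had no added agent and is labelled normal differentiation. BP1 and BP4 received BP at 1 and 4 µM, Cort10 and Cort60 cortisol at 10 and 60 µM, DEP5 and DEP10 DEP at 5 and 10 µM, and PFOA60 and PFOA100 PFOA at 60 and 100 µM; BP and DEP are named as the labels write them. The lower of each of these doses was chosen as the lowest with an observed adverse effect on growth and the higher as one that suppressed growth by 75%. NS, labelled normal stemness, received no agent. LIF, the cytokine that maintains self-renewal of mouse embryonic stem cells, was present at 1000 U/mL in every group except RA and ND.

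The RNAs of these genes are guides. In the nucleolus, H/ACA box RNAs (Snora genes) pair with ribosomal RNA to direct pseudouridylation, and C/D box RNAs (Snord genes) pair with it to direct ribose methylation; Scarna genes encode guides of both types that act on spliceosomal RNAs in Cajal bodies. In mammals most of them lie inside host genes, many of which encode ribosomal proteins or translation factors, and are trimmed out of the excised intron. Mature guide RNAs carry no long poly(A) tail, and a 3′ kit of the QuantSeq type primes on runs of A. Values below are therefore levels of reads assigned to these genes and not amounts of mature guide RNA, which were not measured.

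The sequences of the members on which the results turn most show both box types. They are GENCODE M21 transcripts on the GRCm38 build, printed 5′ to 3′; the counts themselves came from the mm9 build. Of the 109 members, 106 had 1 such sequence. Capitals mark ACA followed by 2 to 5 bases at the 3′ end in Snora3, Snora75, Snora41 and Scarna8, which rose steeply in Sorb300, and none is marked in Snora81, which had the highest mean level and in which no such ACA was found.
Snora3: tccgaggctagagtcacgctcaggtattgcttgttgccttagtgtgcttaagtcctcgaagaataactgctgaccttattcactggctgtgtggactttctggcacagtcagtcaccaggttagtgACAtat
Snora75: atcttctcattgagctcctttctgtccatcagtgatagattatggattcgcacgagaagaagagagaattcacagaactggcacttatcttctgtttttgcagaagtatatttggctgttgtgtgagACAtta
Snora41: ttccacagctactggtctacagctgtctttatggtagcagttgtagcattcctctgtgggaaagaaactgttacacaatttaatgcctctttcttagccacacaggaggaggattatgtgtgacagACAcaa
Scarna8: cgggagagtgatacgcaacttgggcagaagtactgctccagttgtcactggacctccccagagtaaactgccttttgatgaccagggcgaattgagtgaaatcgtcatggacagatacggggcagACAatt
Snora81: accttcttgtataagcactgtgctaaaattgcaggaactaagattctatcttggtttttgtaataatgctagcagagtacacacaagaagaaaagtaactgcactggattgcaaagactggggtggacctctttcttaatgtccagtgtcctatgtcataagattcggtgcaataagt

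In the C/D box members that follow, capitals mark TGATGA within the first 20 bases (the C box) and CTGA within the last 20 (the D box). Snord49a, Snord49b and Snord65 lie within 1 host gene but had unlike levels and fitted changes, though differences between them were not tested. Snord89 and Snord104 were, with Snord49b, the 3 members of highest mean level in their class.
Snord49a: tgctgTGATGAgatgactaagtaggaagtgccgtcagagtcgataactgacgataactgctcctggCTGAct
Snord49b: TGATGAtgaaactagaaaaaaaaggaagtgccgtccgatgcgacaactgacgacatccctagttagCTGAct
Snord65: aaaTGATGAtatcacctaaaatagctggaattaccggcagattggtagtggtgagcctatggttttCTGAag
Snord89: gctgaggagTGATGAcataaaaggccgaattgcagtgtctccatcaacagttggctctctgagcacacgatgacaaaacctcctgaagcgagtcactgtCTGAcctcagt
Snord104: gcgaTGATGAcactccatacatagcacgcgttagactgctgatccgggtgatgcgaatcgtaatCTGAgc

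In GRCm38, Snora3 lies at chr7:109520120-109520251, plus strand, in Rpl27a, and Snora75 at chr1:86351169-86351301, minus strand, in Ncl. Snora41 lies at chr1:63179004-63179135, plus strand, in Eef1b2. Scarna8 lies at chr4:86586453-86586583, minus strand, in Haus6. Snora81 lies at chr16:23110756-23110933, plus strand, in Eif4a2. The 3 members of 2410006H16Rik lie at chr11:62603450-62603521, plus strand for Snord49a, chr11:62603079-62603150, plus strand for Snord49b and chr11:62604515-62604586, plus strand for Snord65. Snord89 lies at chr1:39548745-39548854, minus strand, and Snord104, for which no host was found, at chr11:106500993-106501062, plus strand. The ACA pattern was present in 32 of 34 Snora sequences (94.1%), against 7.88% of 4074 other small RNA transcripts of 60 to 250 bases in the same annotation. TGATGA and CTGA, read on the transcript strand in the windows given, were both present in 37 of 63 Snord sequences (58.7%), against 0.02% of the other transcripts. The median lengths were 132 bases for Snora, 78 for Snord and 140 for Scarna sequences. Snord49b held the longest run of A of any member, 8 bases, and 5 members held a run of 6 or more.

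Library totals ran from 1848254 to 7288084 counts (median 4822563). Before edgeR's TMM factors are applied, 3 counts correspond to 0.412 to 1.62 CPM (counts scaled to a common library size). Levels given in CPM elsewhere include those factors. Levels are not divided by length, since a 3′ library is meant to give reads from 1 end of a transcript. At least 1 count was found for 104 members, and 5 were at 0 in every library (Snora19, Snora26, Snord45c, Snord116 and Snord1a). The filter on low counts left 77 members to test, 30 Snora, 40 Snord and 7 Scarna genes. Of these 59 also passed when the Sorb300 libraries were left out of the filter; the other 18 passed through Sorb300 alone and had to be high there. The 27 members with a count that were not tested held 411 counts in the 3 Sorb300 libraries together and 478 in the 33 other libraries together. Embryonic stem cell markers were present in all NS libraries, with summed levels of 3591 to 4612 CPM over 10 pluripotency genes. In such bulk samples a change in the share of a cell type and a change in RNA per cell cannot be told apart.

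In Sorb300, guide RNA genes were higher as a group than in any other condition, and the H/ACA sum differed from NS by a larger factor than the C/D sum did. The summed level of all members was 2279, 10423 and 5552 CPM in Sorb300 libraries 1, 2 and 3, against 693, 753 and 733 CPM in the NS libraries. In shares of all counts, members took 0.243, 0.992 and 0.533% in Sorb300 and 0.0688, 0.0757 and 0.0638% in NS. The 3 Sorb300 libraries thus lay above every NS library and also differed among themselves, library 2 highest and library 1 lowest.

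By class, the Snora sum was 1624, 7750.2 and 3898 CPM in the Sorb300 libraries, against 368, 399.9 and 351 CPM in NS. The Snord sum was 588, 2506 and 1521 CPM in Sorb300, against 320.1, 346 and 375 CPM in NS. The Scarna sum was 66.0, 167 and 133 CPM in Sorb300, against 5.32, 6.89 and 6.96 CPM in NS. Each class sum was higher in all 3 Sorb300 libraries than in all 3 NS libraries. Over the 33 libraries outside Sorb300 the Snora sum reached 617 CPM and the Scarna sum 29.3 CPM, below all 3 Sorb300 libraries. The Snord sum reached 619 CPM in Cort10 library 3, above Sorb300 library 1. The ratio of the Snora to the Snord sum was 2.76, 3.09 and 2.56 in Sorb300, against 1.15, 1.16 and 0.937 in NS, and its highest value among the 33 libraries of the other groups was 1.97, in ND library 1.

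**Figure D1:**
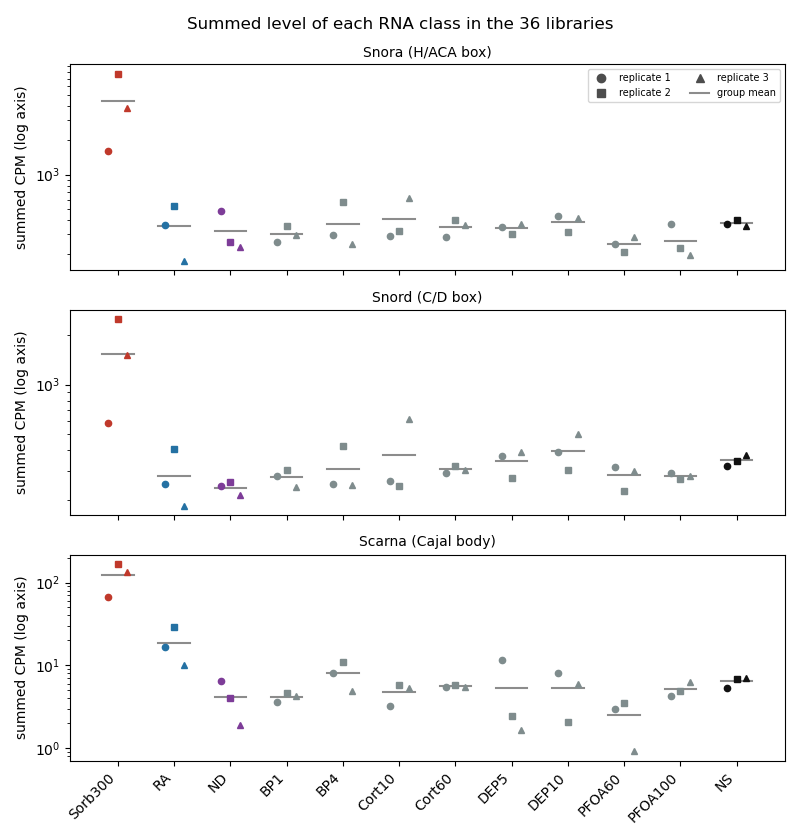
Summed CPM of the Snora, Snord and Scarna genes in each library (log axis), with replicates as separate marks and the group mean as a line. The 3 Sorb300 libraries stand above all 3 NS libraries in each panel, and RA is the next group in the Scarna panel, with 10.0 to 29.3 CPM.

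The other groups had lower summed levels. Summed over all members, RA averaged 653 ± 303 CPM, ND 563 ± 147 CPM, and the groups with 1 of the 4 toxicants between 528 and 789 CPM, against 726 ± 30.4 CPM in NS (SD, n = 3 each). Those means were lowest in PFOA60 (528 ± 77.3 CPM) and highest in DEP10 (789 ± 159 CPM), and Cort10, at 784 ± 396 CPM, had 548, 563 and 1241 CPM in its 3 libraries. Over the 33 libraries outside Sorb300 the sum ran from 367 CPM in RA library 3 to 1241 CPM in Cort10 library 3, below all 3 Sorb300 libraries.

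Much of the level in NS came from a few genes that changed less. Snora81, Snord89, Snord49b and Snord104 held 74.0% of all member counts in NS and 21.7% in Sorb300. The remaining 105 members summed to 1699, 8261 and 4383 CPM in the Sorb300 libraries, against 171, 217 and 176 CPM in the NS libraries. Among those remaining members the Sorb300 libraries were above all other libraries, whose highest was RA library 2 with 588 CPM.

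Across single genes, 60 of the 77 members tested were higher in Sorb300 than in NS at an adjusted p under 0.05 (quasi-likelihood test of edgeR, Benjamini-Hochberg adjusted over 13498 genes) and 0 were lower, where 15.1% of all genes tested were higher and 15.2% lower. At an unadjusted p under 0.05 the test had 67 members, all higher, where 41.2% of all genes passed in either direction, and DESeq2 called 63, none of them lower; the authors' deposited table has 57 of the 109 members higher and 0 lower at its FDR under 0.05. All 30 Snora genes tested were called, with 25 of 40 Snord and 5 of 7 Scarna genes. Among the 59 members whose passing did not rest on Sorb300, 48 were called: 26 of 26 Snora, 19 of 30 Snord and 3 of 3 Scarna genes. The median log2 fold change of the 77 members was 3.98, against 0.004 over all genes. Over the 59 members it was 4.04. All comparisons with NS share the same 3 NS libraries. The medians were 5.21 for Snora, 2.72 for Snord and 3.32 for Scarna genes. Over the 59 members they were 5.26, 2.58 and 3.52. The difference between the classes was not tested. Without replicate number 2 in both groups 31 members were called, and leaving out 1 library at a time gave 46 (without Sorb300 library 2) to 66.

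**Figure D2:**
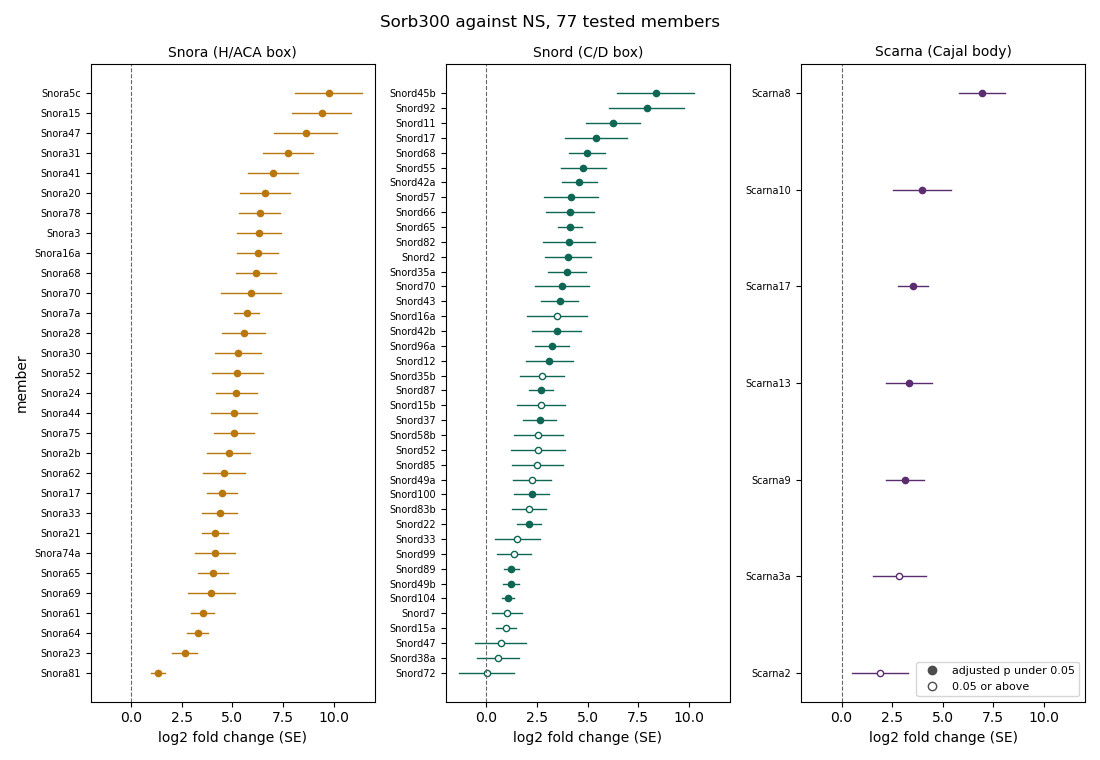
Log2 fold change of the 77 tested members in Sorb300 against NS, by class, with SE as horizontal bars and filled marks for an adjusted p under 0.05. Every Snora gene is filled and lies between 1.33 and 9.75, while Snord genes range from 0.01 to 8.36 with 15 open marks; fitted values of members with 3 or fewer NS counts depend on the prior count of the fit.

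Snora3 and Snora75 were the most abundant of the H/ACA members that rose steeply. Snora3 was at 178, 997 and 437 CPM in the Sorb300 libraries, against 11.97, 6.15 and 2.73 CPM in NS (6.31 ± 1.09 SE on the log2 scale, adjusted p = 1.1e-04). Snora75 was at 211, 1115 and 546 CPM in Sorb300, against 23.6, 18.9 and 13.7 CPM in NS (5.06 ± 0.99 SE on the log2 scale, adjusted p = 3.9e-04). For both genes even the lowest Sorb300 library was above the highest library of any other group. Snora44, an H/ACA gene in the noncoding host Snhg12, was at 93.9, 516 and 257 CPM in Sorb300, against 9.97, 11.6 and 4.23 CPM in NS (5.07 ± 1.15 SE on the log2 scale, adjusted p = 0.0016). Snora7a had the smallest adjusted p of the H/ACA members: it was at 39.9, 228 and 139.7 CPM in Sorb300, against 3.66, 2.46 and 1.74 CPM in NS (5.71 ± 0.62 SE on the log2 scale, adjusted p = 4.7e-08).

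Other H/ACA genes were under 6 CPM in every NS library. Snora41 was at 83.1, 529 and 224 CPM in Sorb300, against 1.33, 4.67 and 0.249 CPM in NS (7.01 ± 1.24 SE on the log2 scale, adjusted p = 1.4e-04). Snora20 was at 47.2, 284 and 122 CPM in Sorb300, against 0.997, 1.72 and 1.74 CPM in NS (6.61 ± 1.24 SE on the log2 scale, adjusted p = 2.5e-04). Snora78 was at 84.0, 388 and 262 CPM in Sorb300, against 5.65, 3.69 and 0 CPM in NS (6.34 ± 1.02 SE on the log2 scale, adjusted p = 4.7e-05). For all 3 genes each Sorb300 library was above every NS library. Snora16a was at 30.0, 89.7 and 48.2 CPM in Sorb300, against 0.332, 0.984 and 0.746 CPM in NS (6.24 ± 1.00 SE on the log2 scale, adjusted p = 2.1e-05).

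For H/ACA genes with 1 to 3 counts in the 3 NS libraries together, a ratio of pooled counts with a counting interval stands in for the fitted fold. Snora5c was at 42.6, 299 and 193 CPM in Sorb300, against 0, 0 and 0.497 CPM in NS, a ratio of 891 (95% exact counting interval 246 to 7363), with an adjusted p of 9.6e-05. Snora15 was at 29.0, 151 and 58.8 CPM in Sorb300, against 0, 0 and 0.249 CPM in NS, a ratio of 858 (95% exact counting interval 154 to 33923), with an adjusted p of 2.0e-05. The intervals are wide because NS held 2 counts of Snora5c and 1 of Snora15. Snora47 was at 19.9, 69.3 and 48.2 CPM in Sorb300, against 0, 0.246 and 0 CPM in NS, a ratio of 471 (95% exact counting interval 84.2 to 18659), with an adjusted p of 1.1e-04. Snora31 was at 14.9, 78.5 and 41.4 CPM in Sorb300, against 0, 0.246 and 0.249 CPM in NS, a ratio of 234 (95% exact counting interval 64.4 to 1936), with an adjusted p of 1.9e-05.

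Snora81 was the exception among H/ACA genes, in level and in size of change. It was at 351, 1262 and 520.1 CPM in Sorb300, against 269, 289 and 291 CPM in NS (1.33 ± 0.35 SE on the log2 scale, adjusted p = 0.0044). It was higher in each Sorb300 library than in each NS library, but Cort10 library 3, at 559 CPM, was above Sorb300 libraries 1 and 3. The next smallest change of an H/ACA member was that of Snora23, at 2.64 ± 0.63 SE on the log2 scale.

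The C/D members were spread more widely. Snord89 was at 114, 515 and 323 CPM in Sorb300, against 137, 133 and 134 CPM in NS (1.24 ± 0.36 SE on the log2 scale, adjusted p = 0.0086). Snord49b was at 76.3, 313 and 255 CPM in Sorb300, against 95.1, 81.9 and 101 CPM in NS (1.21 ± 0.38 SE on the log2 scale, adjusted p = 0.015). In both genes Sorb300 library 1 was below all 3 NS libraries and libraries 2 and 3 were above them, so that the groups overlapped. Snord104 was at 37.3, 72.2 and 71.2 CPM in Sorb300, against 21.3, 31.5 and 31.8 CPM in NS, with no overlap (1.09 ± 0.30 SE on the log2 scale, adjusted p = 0.006). Snord2 was at 45.2, 157 and 98.8 CPM in Sorb300, against 4.99, 11.8 and 1.49 CPM in NS (4.03 ± 1.14 SE on the log2 scale, adjusted p = 0.0092).

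Snord45b and Snord92 had no count in NS, and both passed the filter only through Sorb300, so that they had to be high there. Snord45b was at 4.04, 19.6 and 3.22 CPM in Sorb300, at least 34.6-fold higher than in NS when the group is given 3 counts, with an adjusted p of 0.0013. Snord92 was at 2.02, 14.1 and 3.68 CPM in Sorb300, at least 24.3-fold higher by the same bound, with an adjusted p of 0.0017. At the other end, 15 C/D members did not pass. Snord72 was at 0.735, 1.21 and 0.919 CPM in Sorb300, against 0, 0.984 and 1.74 CPM in NS (0.01 ± 1.37 SE on the log2 scale, adjusted p = 0.998). Snord15a, one of the more abundant of the 15, was at 5.88, 32.2 and 14.7 CPM in Sorb300, against 9.64, 5.41 and 11.9 CPM in NS (0.97 ± 0.49 SE on the log2 scale, adjusted p = 0.13). Snord72 was low in both groups, whereas only Sorb300 library 1 of Snord15a lay within the NS range and library 2 was well above it.

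Of the Cajal body guides, Scarna8, which in humans guides modification of a spliceosomal RNA, changed most. It was at 29.2, 90.9 and 54.7 CPM in the Sorb300 libraries, against 0.332, 0.984 and 0 CPM in NS (6.94 ± 1.15 SE on the log2 scale, adjusted p = 3.5e-05). Scarna17 was at 13.1, 34.4 and 39.5 CPM in Sorb300, against 1.66, 2.21 and 3.48 CPM in NS (3.52 ± 0.73 SE on the log2 scale, adjusted p = 4.1e-04). Scarna9 was at 13.6, 15.0 and 13.8 CPM in Sorb300, against 0.997, 1.97 and 1.74 CPM in NS (3.13 ± 0.92 SE on the log2 scale, adjusted p = 0.0094). No Sorb300 library of these 3 genes overlapped with NS, and in Scarna9 the Sorb300 libraries were nearly equal to one another. Scarna13 was at 3.68, 12.6 and 9.65 CPM in Sorb300, against 1.33, 0.738 and 0.497 CPM in NS (3.32 ± 1.14 SE on the log2 scale, adjusted p = 0.026), and passed the filter only through Sorb300. Scarna2 and Scarna3a did not pass, with adjusted p of 0.31 and 0.098 by edgeR.

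The 3 Sorb300 libraries kept 1 order over nearly all members. Library 2 was the highest of the 3 for 70 of the 77 members tested and library 1 the lowest for 73. The median ratio over members was 4.33 for library 2 over library 1 and 2.41 for library 3 over library 1. Sorb300 library 1 was the deepest of the 3, with 5097071 counts, library 2 had 4336072 and library 3 had 2267565, so the order of the members does not follow that of the totals.

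Sorb300 was also set against the 33 libraries of all other groups. For 49 members (29 Snora, 16 Snord and 4 Scarna genes) all 3 Sorb300 libraries were above all 33 other libraries, which was so for 7.7% of all genes tested. It was so for 41 of the 59 members whose passing of the filter did not rest on Sorb300. Among those 33, RA library 2 was the highest for 26 of the 77 members, Cort10 library 3 for 13 and BP4 library 2 for 9. The Snora gene left out of the 29 among the 30 tested was Snora81.

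**Figure D3:**
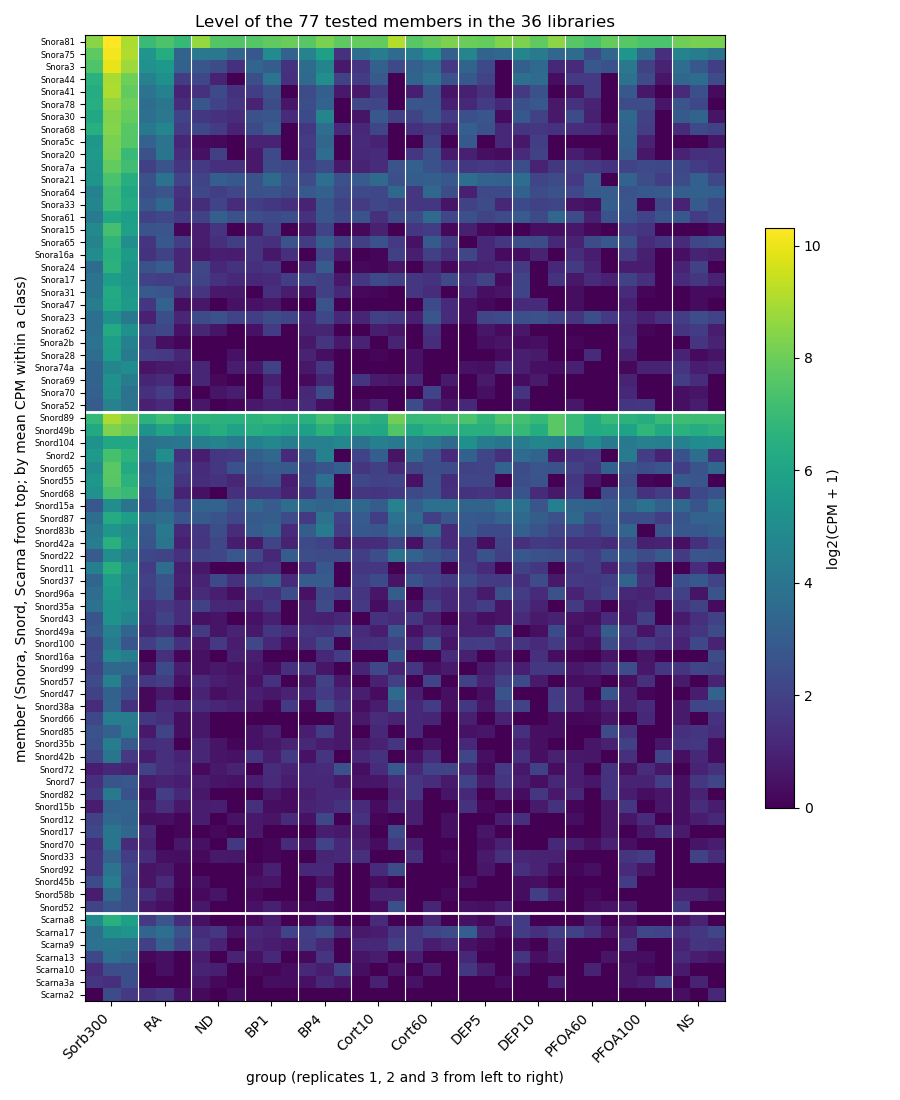
Log2(CPM + 1) of the 77 tested members (rows, by class and then by mean level) in the 36 libraries (columns, grouped by condition). The 3 Sorb300 columns are bright over nearly the whole height, brightest in library 2, while the top Snora row (Snora81) and the top 3 Snord rows are bright in every column.

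Set against the 8 toxicant groups in place of NS, 74 of the 77 members were higher in Sorb300 and 0 were lower by edgeR's quasi-likelihood test at an adjusted p under 0.05, where 27.0% of all genes were higher and 22.7% lower. Among the 59 members whose passing of the filter did not rest on Sorb300, 56 were higher. DESeq2 called 72 of the 77. The toxicant groups kept LIF and, at their higher doses, also suppressed growth. Snora28 was at 11.9, 51.1 and 18.4 CPM in Sorb300, against 0 to 1.42 CPM (median 0) over the 24 toxicant libraries (7.12 ± 0.55 SE on the log2 scale, adjusted p = 2.6e-12); it passed the filter only through Sorb300 and so had to be high there. Snora5c was at 42.6, 299 and 193 CPM in Sorb300, against 0 to 9.42 CPM (median 0.801) over the toxicant libraries (7.56 ± 0.61 SE on the log2 scale, adjusted p = 3.9e-10). Snora28 had no count in 15 of the toxicant libraries and Snora5c none in 11. Snora41, with 83.1, 529 and 224 CPM in Sorb300, was at 0 to 7.64 CPM (median 0.856) in the toxicant libraries (7.15 ± 0.54 SE on the log2 scale, adjusted p = 6.0e-11). Scarna8, with 29.2, 90.9 and 54.7 CPM in Sorb300, was at 0 to 2.54 CPM (median 0.0873) there (7.01 ± 0.51 SE on the log2 scale, adjusted p = 1.1e-12). None of these 4 genes had a toxicant library as high as the lowest Sorb300 library. The 3 members that did not pass were Snord15a, Snord38a and Snord72, the last at -0.52 on the log2 scale.

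Host genes were more often lower than higher where the guides they hold were higher. A tested host gene was found by position in the annotation for 66 of the 77 members, 54 different genes in all. Of these hosts 2 were higher and 21 lower in Sorb300 than in NS, where 15.1% of all genes were higher and 15.2% lower. The median host log2 fold change was -0.53. The member's log2 fold change was above that of its host in 66 of 66 pairs. Members whose sequence overlaps no annotated exon of the host (32) had a median log2 fold change of 3.97, and those that overlap an exon of at least 1 host transcript (34) had 4.00. Reads of a host exon and of a member inside it can be shared or split in counting, and the strand used is not given in the sources used here.

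Eif4a2, which encodes a helicase of translation initiation, averaged 28.9 ± 18.4 CPM in Sorb300 and 116.8 ± 62.9 CPM in NS (SD, n = 3 each; -1.98 ± 0.56 SE on the log2 scale, adjusted p = 0.0083). Its guides Snora81 and Snord2 changed by 1.33 and 4.03 on the log2 scale, the first of them far more abundant in NS. The noncoding host 2410006H16Rik averaged 144 ± 14.0 CPM in Sorb300 and 674 ± 349.6 CPM in NS (SD, n = 3 each; -2.23 ± 0.51 SE on the log2 scale, adjusted p = 0.0013). Within it, Snord65 was at 32.5, 204 and 77.2 CPM in Sorb300, against 2.66, 5.41 and 9.70 CPM in NS (4.12 ± 0.58 SE on the log2 scale, adjusted p = 3.2e-06). Snord49a was at 6.25, 21.3 and 9.19 CPM in Sorb300, against 1.33, 1.97 and 4.23 CPM in NS (2.26 ± 0.95 SE on the log2 scale, adjusted p = 0.069), and Snord49b changed less, as given above. The 3 guides of this host thus ranged from 1.21 to 4.12 on the log2 scale; differences between guides of 1 host were not tested.

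Other hosts showed the same opposite or smaller change. Ncl, which encodes nucleolin and holds Snora75 and Snord82, averaged 1683 ± 888 CPM in Sorb300 and 2975 ± 606 CPM in NS (host -0.82 ± 0.25 SE on the log2 scale, adjusted p = 0.013). Rpl27a, a ribosomal protein gene that holds Snora3, averaged 902 ± 122 CPM in Sorb300 and 1629 ± 494 CPM in NS (host -0.85 ± 0.31 SE on the log2 scale, adjusted p = 0.036). Eef1b2, an elongation factor gene that holds Snora41, averaged 2198 ± 569.9 CPM in Sorb300 and 3280.1 ± 571 CPM in NS (host -0.58 ± 0.30 SE on the log2 scale, adjusted p = 0.14). Ncl and Rpl27a were lower in Sorb300 and Eef1b2 did not pass, while their guides rose. Tbrg4, the host of Snora5c, was 1 of the 2 hosts that rose, at 299.8 ± 133 CPM in Sorb300 and 97.0 ± 13.4 CPM in NS (host 1.63 ± 0.24 SE on the log2 scale, adjusted p = 5.7e-06). Nop56, a core protein of C/D particles and the host of Snord57, was the other, with a log2 fold change of 0.70 ± 0.22 SE and an adjusted p of 0.017.

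**Figure D4:**
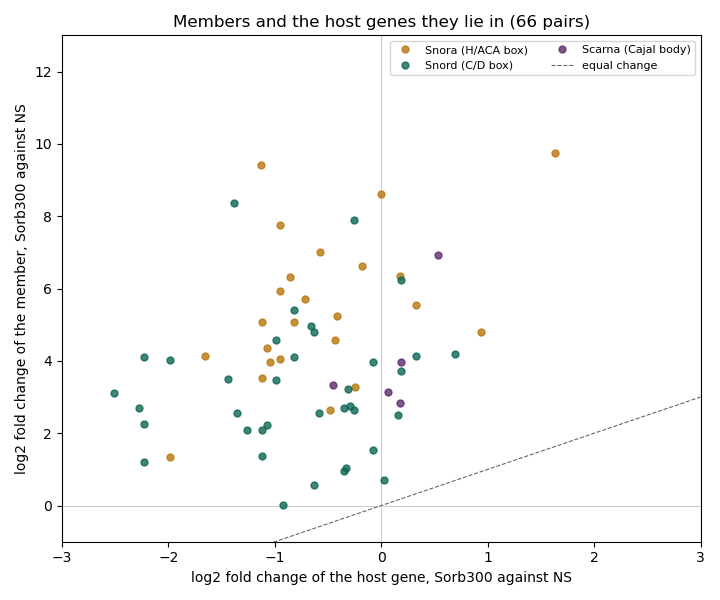
Log2 fold change in Sorb300 against NS of 66 members (vertical axis) and of the host gene each lies in (horizontal axis), coloured by class, with a dashed line where both would be equal. All 66 points lie above the line, and most lie left of 0 on the host axis.

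Genes for the proteins that bind and build these particles changed less than the guides. Of 8 genes for core proteins of the particles, 1 rose in Sorb300 (Nop56) and 0 fell, where 15.1% of all genes rose and 15.2% fell. Nop56 was at 326, 348 and 259 CPM in Sorb300, against 226, 169 and 181 CPM in NS. Dkc1, which encodes the pseudouridine synthase of H/ACA particles, was at 1136, 689 and 839 CPM in Sorb300, against 889, 1447 and 1527 CPM in NS, with an adjusted p of 0.074. Of 16 assembly genes 5 rose and 3 fell. Wrap53, whose protein brings Cajal body guides and telomerase RNA to Cajal bodies, was at 105, 196 and 229 CPM in Sorb300, against 37.6, 41.3 and 27.8 CPM in NS (2.31 ± 0.27 SE on the log2 scale, adjusted p = 1.5e-07). Tcof1, which encodes a nucleolar factor of ribosomal RNA synthesis, and Pih1d1, of the R2TP chaperone complex, changed by 1.16 and 1.24, and Nufip1, a C/D assembly factor, by -1.13 on the log2 scale, all past the threshold.

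Of 32 genes for 3′ end processing and decay of nuclear RNA, 9 rose and 5 fell, where 15.1% of all genes rose and 15.2% fell. Among them the exosome genes Exosc5 and Exosc7 changed by 1.37 and -1.21 on the log2 scale, and the Integrator genes Ints3 and Ints1 by 1.78 and 1.17. Of 15 noncoding host transcripts 0 rose and 6 fell; Snhg3 was at 284, 279 and 175 CPM in Sorb300, against 555, 838 and 1189 CPM in NS (-1.80 ± 0.29 SE on the log2 scale, adjusted p = 1.6e-05). Of 7 tested genes for other small RNAs (microRNAs not included), 4 rose and 0 fell. Rpph1, the RNA of RNase P, was at 52.9, 185 and 186 CPM in Sorb300, against 2.99, 10.3 and 7.46 CPM in NS (4.32 ± 0.51 SE on the log2 scale, adjusted p = 1.5e-07). Rmrp, the RNA of RNase MRP, was at 13.6, 49.9 and 47.8 CPM in Sorb300, against 1.99, 1.97 and 1.49 CPM in NS. Both had their lowest Sorb300 value in library 1, as the guides did. Terc, the telomerase RNA, which ends in an H/ACA domain, changed by 3.58 and the vault RNA gene Vaultrc5 by 2.81 on the log2 scale, both past the threshold.

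Of 52 replication-dependent histone genes tested, whose messages also lack a poly(A) tail, 4 rose and 10 fell in Sorb300. The shares over all genes were 15.1% higher and 15.2% lower. Hist1h2bc and Hist1h3h changed by 2.07 and -4.17 on the log2 scale. Of 507 microRNA genes listed only 5 could be tested, with 1 higher (Mir3068) and 1 lower (Mir684-1). Of 10 pluripotency genes 1 rose (Utf1, 0.83) and 2 fell (Epcam, -1.16, and Tdgf1, -1.24). Of 10 fibroblast genes tested 0 rose and 2 fell (Col1a2 and Thy1), and their summed level was 390 to 507 CPM in Sorb300 and 281 to 557 CPM in NS.

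In RA, members changed in both directions. Of the 77 members 4 were higher and 2 lower in RA than in NS by edgeR's quasi-likelihood test at an adjusted p under 0.05, where 10.3% of all genes were higher and 13.8% lower, so that the members' shares lie below those of all genes. DESeq2 called 7, and edgeR with no filter on low counts called 2. Snora31 was at 6.44, 5.59 and 1.75 CPM in RA, against 0, 0.246 and 0.249 CPM in NS, a ratio of pooled counts of 23.8 (95% exact counting interval 6.36 to 201), with an adjusted p of 0.011. Snora5c was at 8.48, 14.1 and 1.16 CPM in RA, against 0, 0 and 0.497 CPM in NS, a ratio of 35.8 (95% exact counting interval 9.66 to 299), with an adjusted p of 0.036. Snora15 and Snora47, with adjusted p of 0.029 and 0.033 by edgeR, were the other 2, at ratios of 34.7 (95% exact counting interval 5.96 to 1399) and 28.6 (95% exact counting interval 4.86 to 1157). All 4 were near 0 in NS, and RA libraries 1 and 2 were higher than RA library 3. In RA library 3 Snora15 was at 0.145 CPM, within the NS range of 0 to 0.249 CPM, so that the groups overlapped. Snora47 was at 0.291 CPM in that library, against at most 0.246 CPM in NS.

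The 2 members that fell in RA were among the 4 of highest level in NS. Snora81 was at 130.0, 169.7 and 118 CPM in RA, against 269, 289 and 291 CPM in NS (-1.03 ± 0.35 SE on the log2 scale, adjusted p = 0.031). Snord104 was at 12.9, 14.5 and 15.4 CPM in RA, against 21.3, 31.5 and 31.8 CPM in NS (-0.99 ± 0.31 SE on the log2 scale, adjusted p = 0.018). No RA library overlapped with NS in either gene. Snord49b was at 38.01, 63.5 and 39.3 CPM in RA, against 95.1, 81.9 and 101 CPM in NS, and missed the threshold with an adjusted p of 0.054. The calls rest on few libraries: leaving out 1 library gave 1 to 8 calls, with 2 when RA library 1 or NS library 1 was left out, 1 when NS library 2 or 3 was, and 8 when RA library 3 was.

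Against ND, which also lacked LIF, 10 members were higher in RA and 0 lower by edgeR, where 8.05% of all genes were higher and 10.1% lower; DESeq2 called 11, and edgeR with no filter on low counts 4. The 10 were Snora5c, Snora2b, Snora44, Snora28, Snora3, Snora68, Snord11, Snord68, Scarna8 and Scarna17. Scarna17 was at 9.27, 12.5 and 4.80 CPM in RA, against 1.57, 2.09 and 0.433 CPM in ND (2.67 ± 0.73 SE on the log2 scale, adjusted p = 0.0089). Scarna8 was at 2.36, 5.59 and 1.45 CPM in RA, against 0.393, 0 and 0 CPM in ND, a ratio of pooled counts of 23.5 (95% exact counting interval 6.12 to 201), with an adjusted p of 0.017. Neither gene overlapped between the groups. Snora44 was at 22.1, 34.9 and 2.47 CPM in RA, against 3.53, 0.966 and 0 CPM in ND (3.77 ± 1.25 SE on the log2 scale, adjusted p = 0.036). Snord11 was at 2.51, 11.8 and 0.727 CPM in RA, against 0.589, 0 and 0 CPM in ND, a ratio of 21.3 (95% exact counting interval 6.92 to 106), with an adjusted p of 0.031. In Snora44, RA library 3 lay within the ND range. Leaving out 1 library gave 1 to 13 calls, with 1 when RA library 2 or ND library 2 was left out, 3 when RA library 1 or ND library 3 was, and 4 when ND library 1 was.

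**Figure D5:**
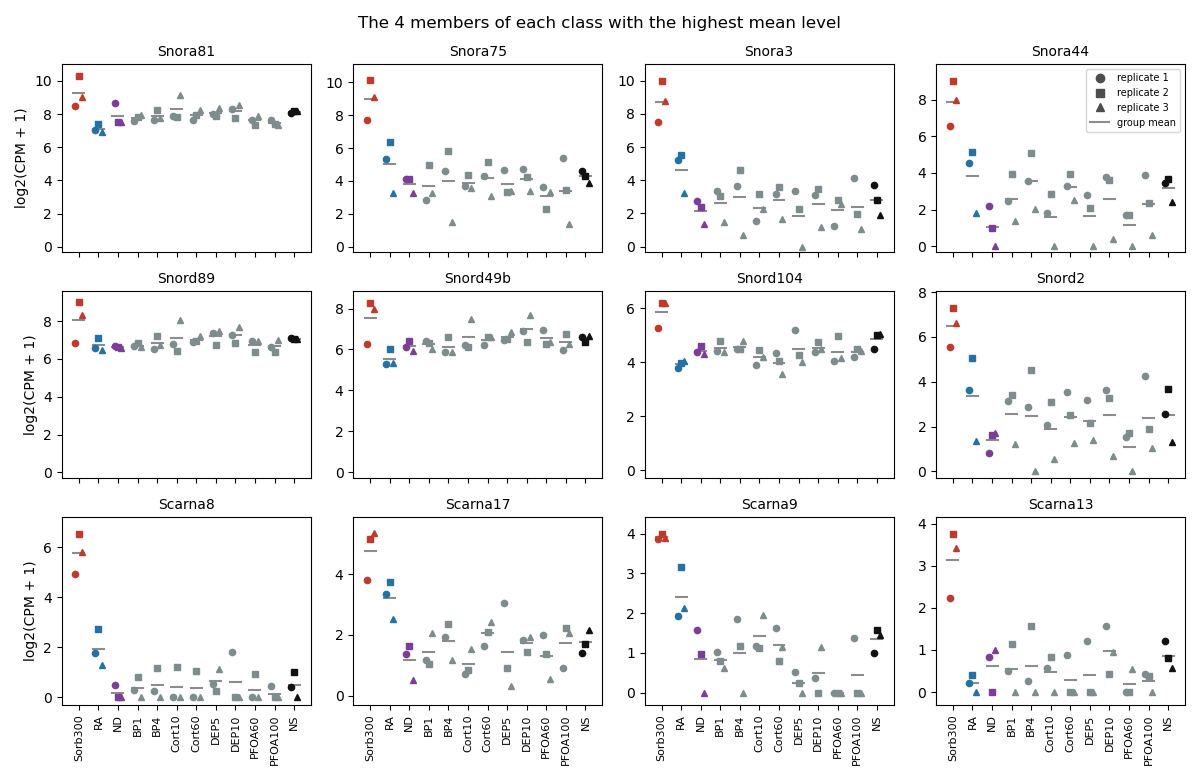
Log2(CPM + 1) of the 4 members of each class with the highest mean level, in each library of the 12 groups, with the group mean as a line. Snora81, Snord89, Snord49b and Snord104 are high in all groups, while Snora75, Snora3, Snora44, Snord2 and Scarna8 are high in Sorb300 and lower in the other groups, where RA libraries 1 and 2 and BP4 library 2 are among the higher.

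Genes of the particle proteins and host genes were often lower in RA. Of 8 core protein genes 7 fell and 0 rose in RA against NS, and of 16 assembly genes 8 fell and 0 rose. Over all genes 13.8% were lower and 10.3% higher in RA. Of the 54 tested hosts 35 fell and 0 rose, with a median log2 fold change of -1.02, and 57 of 66 members had a larger log2 fold change than their host. All 10 pluripotency genes fell in RA, with a sum of 593, 910.5 and 829 CPM in RA, against 4612, 3962 and 3591 CPM in NS. Of 10 fibroblast genes tested 7 rose and 1 fell, with a sum of 1054, 1002 and 945 CPM in RA, against 281, 557 and 426 CPM in NS. The part of cell type in the RA results was not tested.

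In ND and the toxicant groups edgeR called no member against NS at an adjusted p under 0.05. In ND against NS edgeR called 0 members and DESeq2 0, where edgeR called 0.259% of all genes higher and 0.933% lower. At an unadjusted p under 0.05 there were 6 of the 77 members, all lower, where 12.5% of all genes passed. The log2 fold change was above 0 in 18 of the 77 members, with a median of -0.74 against 0.014 over all genes. Snora81 was at 405, 185 and 182 CPM in ND, against 269, 289 and 291 CPM in NS, with library 1 of ND above NS and the other two below it.

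In each of the 8 toxicant groups against NS edgeR called 0 members. At an unadjusted p under 0.05 there were 4 in BP1, 5 in BP4, 4 in Cort10, 4 in Cort60, 3 in DEP5, 1 in DEP10, 5 in PFOA60 and 5 in PFOA100. The share of all genes at that unadjusted threshold was 2.6% in BP1, 3.39% in BP4, 3.85% in Cort10, 6.05% in Cort60, 3.74% in DEP5, 4.55% in DEP10, 7.51% in PFOA60 and 4.83% in PFOA100. At an adjusted p under 0.05 it was 0% in each group except PFOA60, where it was 0.0741%. DESeq2 called 1 member, lower, in PFOA60 and 0 in the other groups, and the authors' deposited table likewise has 1 member lower in PFOA60 at its FDR under 0.05. In PFOA60 Scarna9 was at 0 in all 3 libraries, against 0.997, 1.97 and 1.74 CPM in NS, with an unadjusted edgeR p of 0.0011.

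With the 8 toxicant groups pooled, edgeR called 0 members and DESeq2 0, where edgeR called 0.0889% of all genes. At an unadjusted p under 0.05 there were 9 of the 77 members, all lower, where 7.01% of all genes passed. Scarna2, with the smallest p of these members, had no count in any toxicant library and passed the filter only through Sorb300. Of the same 9 members, Snora2b, Snora69, Snora74a and Snord58b also passed the filter only through Sorb300. In the 4 higher against the 4 lower doses edgeR and DESeq2 called 0 members, where edgeR called 0% of all genes. At an unadjusted p under 0.05 there were 8 of the 77 members, all higher, where 1.54% of all genes passed. In the dose comparison the log2 fold change was above 0 in 28 of 30 Snora, 26 of 40 Snord and 6 of 7 Scarna genes tested. The medians were 0.76, 0.23 and 0.65 against -0.01 over all genes. The 6 Scarna genes include Scarna2, which had no count in the 24 toxicant libraries, so its fitted value above 0 is numerical only. Single libraries stood out within these groups: the remaining 105 members summed to 183, 440.1 and 93.1 CPM in BP4, high in library 2, and to 288, 121 and 90.2 CPM in PFOA100, high in library 1. Levels also differed by replicate number in NS and the toxicant groups. Without Snora81, the Snora sum was 30.05 to 60.7 CPM in replicate 3. It was 47.6 to 168.8 CPM in replicate 1 and 48.5 to 271 CPM in replicate 2. The Snora to Snord ratio without Snora81, Snord89, Snord49b and Snord104 was 0.377 to 1.014 in replicate 3. In replicates 1 and 2 that ratio was 0.85 to 1.48 and 1.005 to 1.78. The cause was not tested.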

How the data were processed

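Cells were lysed in Trizol and libraries followed Lexogen's QuantSeq 3′ method, per the labels' protocols. Each of the 11 deposited tables holds the authors' raw read counts per gene for 21516 genes in 1 condition and NS, and the same 3 NS columns stand in all of them. Per the submitters' processing notes reads were handled with tools including CASAVA 1.8.2, STAR and HTSeq, with edgeR also named, on build mm9; what each did, the annotation and the strand setting are not given in the sources used. The authors' deposited log2 fold changes and FDR values (adjusted p-values) served only for the counts credited to their table.

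The default filterByExpr of edgeR, given the 12 groups, kept 13498 genes. edgeR 4.0.16 (R 4.3.3) fitted 1 mean for each of the 12 groups to the 36 libraries with TMM scaling (residual degrees of freedom 24, common coefficient of biological variation 0.306), and 15 comparisons were tested with its quasi-likelihood test, two-sided, with Benjamini-Hochberg adjustment over all genes of a comparison. An SE was obtained from each log2 fold change and its F statistic. The script was tested on simulated data. Alternatives were DESeq2 1.42.0, RLE scaling, unscaled totals, no filter, the replicate block, only the groups compared, and leaving out libraries. The labels call the 3 libraries of a group biological experiments; errors of levels are SD over them. Against a group with 0 counts, 3 counts over the group give a lower bound, and intervals and bounds cover counting error only.

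Sequences, positions and host genes came from GENCODE M21 (GRCm38), matched by symbol. In 7 comparisons with NS (PFOA60, DEP5, DEP10, Cort10, BP1, BP4 and ND) the replicate numbers were taken as pairing the libraries, because the deviations of same-numbered libraries from their group means correlated above 0.1 in every pair; there the block left the members called at 0. Members were chosen by symbol, and the named ones by the 4 highest mean levels in each class and by the largest log2 fold changes past the threshold with at least 2 CPM in the higher group (up to 12 a direction for Sorb300 against NS, otherwise up to 4); from each accompanying list up to 4 of smallest adjusted p and the 2 of highest level could be named. Snora7a, Snora23, Snord65, Snord49a, Snord15a, Snord72, Scarna2, Scarna3a, Snora2b, Snora68, Snord68, Snord38a, Snora69, Snora74a and Snord58b were named after their values were seen. The members and lists were chosen with earlier results of these data known.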

Additional observations from a re-analysis of the deposited data

How the results depend on the processing

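No alternative reversed the direction of a named member. Of the 22 named members called in Sorb300 against NS, 12 stayed past the threshold in every alternative and 17 when each library was left out in turn; of the 6 in RA against NS it was 0 and 1, of the 4 in RA against ND 0 and 0, and of the 4 in Sorb300 against the toxicant groups 4 and 4. The count of 60 members in Sorb300 against NS was 31 without replicate 2 of both groups and 46 to 66 leaving out 1 library. In RA against NS, 6 members were called, 2 with no filter on low counts, 2 without replicate 1, 0 without replicate 2 and 1 to 8 leaving out 1 library. In RA against ND, 10 were called, 4 with no filter, 2 without replicate 1, 0 without replicate 2 and 1 to 13 leaving out 1 library. DESeq2 called 1 member in PFOA60 against NS, where edgeR called 0. The causes were not tested.

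In 8 comparisons the replicate numbers were not taken as pairing the libraries. With the replicate block the count was 64 in Sorb300 against NS, 12 in RA against NS and 12 in RA against ND, and the block made no call among members in the toxicant comparisons with NS. Library totals limit members under about 1.85 CPM, the level of 3 counts in the shallowest library, BP4 library 3, with its TMM factor.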
